A study of Mus musculus with 64 samples.

Results

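RNA of epididymal white adipose tissue (eWAT) of FANKO mice was compared with that of WT mice at ZT 10, late in the light phase. The comparison holds 4 WT and 4 FANKO samples, chosen by their labels for depot, genotype and time point out of 64 sequenced samples. All genes were compared, and genes of 9 stress responses were described in detail, with the other eWAT time points (ZT 6, ZT 18 and ZT 22, again 4 samples per genotype) used to ask whether the genotype effect at ZT 10 differed from theirs. FANKO mice carry a fat-specific *Nampt* knockout. Per the study's methods, *Nampt* alleles with loxP sites around an exon were recombined by Cre under the adiponectin promoter, and the WT mice were littermates without Cre. All were male, a few months old, and fed chow at room temperature, with ZT 0 at the start of the light phase. Because the promoter acts in adipocytes, the stromal, vascular and immune cells of eWAT keep their *Nampt*, and the counts of whole tissue sum over all of these cells. The labels number the samples of a group but do not say whether each came from 1 mouse, so the p values measure the spread between samples. In the main fit this spread was pooled within the 16 groups of all 64 samples, and not taken from the 8 samples at ZT 10 alone.

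Cells meet damage with separate transcriptional programs. Heat shock factors raise the cytosolic chaperones that fold proteins or hold misfolded ones. The unfolded protein response, with its sensors in the endoplasmic reticulum (ER), raises ER chaperones and the machinery that removes misfolded ER proteins. In the integrated stress response, kinases that sense lack of amino acids, ER stress, haem lack or mitochondrial trouble lower general translation and favour that of the transcription factor ATF4, which raises genes of amino acid supply and tRNA charging and secreted hormones such as FGF21 and GDF15. NRF2 raises glutathione and thioredoxin enzymes, p53 answers DNA damage, hypoxia-inducible factors answer lack of oxygen, and the glucocorticoid receptor carries the hormonal response to stress. NAMPT makes nicotinamide mononucleotide, the precursor of NAD in the salvage pathway, and NAD is the coenzyme of many redox enzymes and the substrate of sirtuins and PARPs. In adipose tissue, feeding and fasting set a daily course of lipid synthesis and release on top of these programs.

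Counts assigned to genes ranged from 10595161 to 15872301 in the WT libraries and from 6117343 to 22855470 in the FANKO libraries at ZT 10. Genes of the mitochondrial genome took 4.97% to 8.49% of the counts in WT and 11.1% to 13.1% in FANKO. The 10 most abundant genes, among them the mitochondrial ribosomal RNAs and the lipid synthesis genes *Scd1* and *Fasn*, took 15% to 20% of the counts in WT and 25.1% to 27.3% in FANKO. Levels are therefore given as CPM, the gene's count relative to a library size that was adjusted by TMM factors on the premise that the bulk of genes is equal between libraries, and they are not corrected for gene length, so they compare samples and not genes. With TMM the median log2 fold change of all genes at ZT 10 was 0.00. Scaling by library size alone moved it to -0.31, so each list of genes is given relative to that median too. Such scaling shifts all genes nearly alike. A list's median relative to all genes can therefore hardly move with it and is no check of the calls. All 6 adipocyte markers were detected in both genotypes, with a summed level of 13351 to 14702 CPM in WT and of 14724 to 16262 CPM in FANKO. Of these markers *Fabp4* was higher in FANKO, and *Adipoq*, *Plin1* and *Lep* were lower. The FANKO library of replicate 1 was the lowest of its group for 72 of the 143 stress genes that were higher in FANKO, against 22 to 25 for each of the other FANKO libraries. Without it 140 stress genes were higher and 16 lower.

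*Nampt*, the targeted gene, was measured at 135, 147, 160.3 and 125 CPM in the 4 WT libraries and at 131, 117, 113 and 115 CPM in the 4 FANKO libraries. The highest FANKO library lay above the lowest WT library, so the groups overlapped. The log2 fold change was -0.25 ± 0.13 (SE, n = 4 and 4), with an adjusted p of 0.144 over all genes (Benjamini-Hochberg) in the quasi-likelihood test of edgeR, the source of every adjusted p given for a single gene unless another tool is named. With library size as the only scaling *Nampt* was called lower, with a log2 fold change of -0.56 (adjusted p = 0.00647). In an edgeR fit of the ZT 10 eWAT samples only it was -0.30 and not called (adjusted p = 0.0125). An exact two-sided permutation test of the TMM-scaled CPM gave p = 0.0571, where the smallest p that 4 against 4 samples allow is 0.0286. At the other time points the log2 fold change of *Nampt* was -0.03 at ZT 6, -1.11 at ZT 18 and -0.59 at ZT 22. The gene-level count covers every exon and the whole tissue, so it does not measure the deleted exon or the adipocytes apart from other cells.

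Of 20249 genes tested at ZT 10, 4953 were called at an FDR below 0.01, which is 24.5% of all genes. Of these, 3240 were higher in FANKO and 1713 were lower. Among the calls 820 genes were over 2-fold higher and 664 over 2-fold lower. Of the genes higher at ZT 10, 2666 were also called higher at ZT 6, 1397 at ZT 18 and 1796 at ZT 22. Of the higher genes 425 were called higher at no other time point, and of the lower ones 360 were called lower at no other. The share of calls that were higher was 65.4% with TMM. It was 21.1% after scaling by library size alone and 55.1% in a fit of the 8 libraries on their own.

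The 10 largest increases among well-measured protein-coding genes were *Aspg*, *Phospho1*, *Hephl1*, *Slc2a5*, *Gm11992*, *Gbp10*, *Oasl1*, *Sorcs2*, *Ms4a4c* and *Slc7a11*. *Aspg*, a lysophospholipase and asparaginase, had 2.57, 1.86, 3.23 and 1.41 CPM in WT and 44.9, 81.1, 53.3 and 64.2 CPM in FANKO, a log2 fold change of 4.78 ± 0.30 (adjusted p = 7.1e-18). *Slc2a5*, the fructose transporter GLUT5, rose by 4.25 ± 0.53 on the log2 scale (adjusted p = 7.22e-09), from WT libraries at 2.25, 0.687, 6.91 and 2.93 CPM to FANKO libraries at 46.9, 60.6, 61.5 and 58.4 CPM. No library of either group overlapped the other for these genes, as the rule that named them asked. *Gbp10* and *Oasl1*, both known as interferon-responsive genes, and *Ms4a4c* had FANKO replicate 1 well below the other FANKO libraries. *Oasl1* was at 0.821, 1.82, 1.31 and 1.31 CPM in WT and at 5.34, 19.8, 32.4 and 35.5 CPM in FANKO.

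The 10 largest decreases were *D430019H16Rik*, *Sfrp5*, *Celsr2*, *Klf14*, *Folh1*, *Shisa2*, *C6*, *2810459M11Rik*, *Dnah3* and *Adamtsl2*. *Sfrp5*, a secreted inhibitor of Wnt signalling made by adipocytes, had 53.1, 36.4, 17.4 and 24.4 CPM in WT and 2.20, 0.526, 1.09 and 1.82 CPM in FANKO, a log2 fold change of -4.65 ± 0.64 (adjusted p = 7.3e-08). *Klf14*, a transcription factor of adipose tissue, was at 11.01, 9.08, 5.68 and 7.58 CPM in WT and 1.13, 0.307, 0.545 and 1.16 CPM in FANKO, with a log2 fold change of -3.53 ± 0.52 (adjusted p = 3.23e-07). *Celsr2*, an adhesion receptor of the cadherin family, fell by 4.00 on the log2 scale. *D430019H16Rik* fell by 5.75, the largest fall of the named genes.

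Many stress genes were higher in FANKO eWAT at ZT 10. The 9 stress lists hold 313 distinct genes that were tested, of which 143 (45.7%) were higher in FANKO and 14 (4.47%) lower. Over all genes 16% were called higher and 8.46% lower at ZT 10. The lists differed from each other, as the plot of their members shows.

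**Figure D1:**
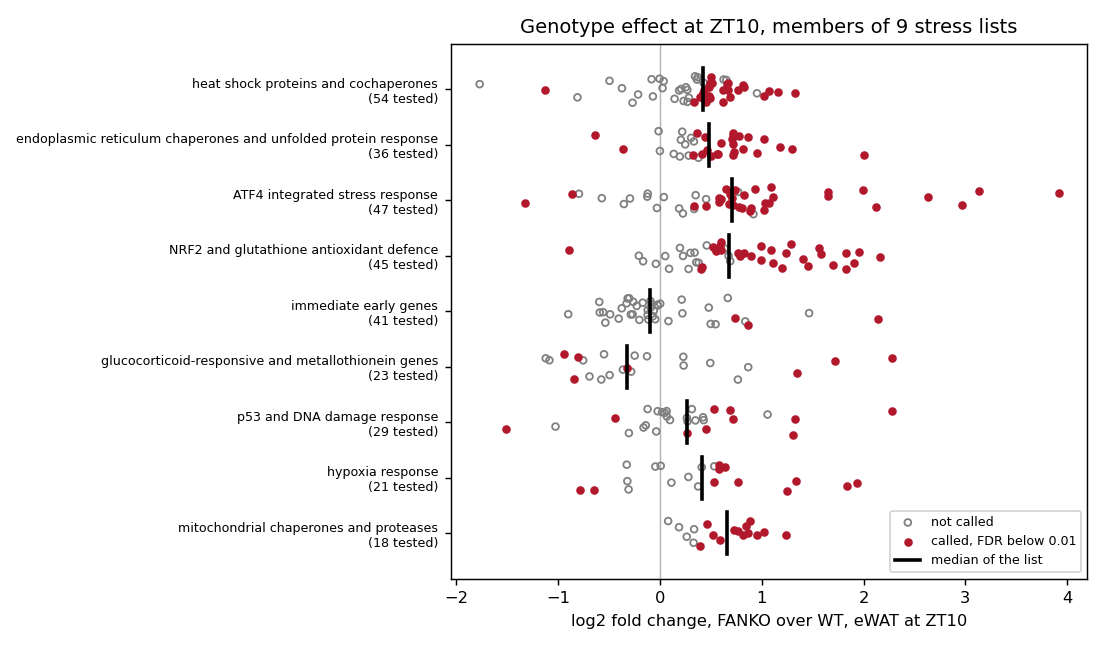
Genotype effect at ZT 10 (horizontal axis, log2 fold change of FANKO over WT) for each tested member of 9 stress lists (rows), with called genes filled, genes not called open and the median of each list as a black bar. The bars of the ATF4, NRF2 and mitochondrial chaperone lists lie at 0.71, 0.67 and 0.66, and those of the immediate early and glucocorticoid lists at -0.09 and -0.32.

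Heat shock proteins and their cochaperones that passed the test were, with 1 exception, higher in FANKO. Of 54 members tested at ZT 10, 27 rose (all genes 16%), 1 fell (8.46%) and 26 were not called. The median log2 fold change was 0.43 beside 0.00 for all genes. The constitutive cytosolic chaperone *Hspa8* was at 223, 239.8, 194 and 196 CPM in the WT libraries and 350.0, 445, 535 and 469 CPM in the FANKO libraries, a log2 fold change of 1.07 ± 0.16 (adjusted p = 2.54e-07). Every FANKO library held more *Hspa8* than any WT library. The count of *Hspa8* may include the small nucleolar RNAs *Snord14c*, *Snord14d* and *Snord14e*, which lie within the gene on the same strand. The small heat shock proteins *Cryab* and *Hspb8*, which hold unfolded proteins without ATP, rose by 1.32 ± 0.24 and 1.16 ± 0.18 on the log2 scale (adjusted p = 2.05e-05 and 5.13e-07). *Cryab* had 47.1, 43.03, 53.01 and 53.7 CPM in WT and 89.4, 117, 151 and 136 CPM in FANKO. The member that fell was *Hspa2*, an HSP70 known best from the testis, with 10.8, 15.3, 13.8 and 8.99 CPM in WT and 7.12, 5.66, 4.30 and 5.12 CPM in FANKO and a log2 fold change of -1.13 ± 0.20 (adjusted p = 8.06e-06).

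Genes of the same list outside the naming rule were picked after their values were seen. *Hsp90aa1*, the inducible HSP90, rose from 88.2, 84.7, 101 and 108 CPM to 129.8, 149, 176 and 158 CPM (log2 fold change 0.69 ± 0.14, adjusted p = 9.01e-05). Its activator *Ahsa1* and the HSP70 exchange factor *Hspa4* rose by 0.82 ± 0.10 and 0.62 ± 0.09 on the log2 scale (adjusted p = 1.43e-09 and 8.81e-08), and the chaperonin subunit *Cct6a* by 0.49 ± 0.09 (adjusted p = 3.67e-05). The classic stress-induced *Hspa1b* did not share this direction: it was at 3.45, 5.84, 3.23 and 4.02 CPM in WT and 2.55, 2.37, 2.01 and 2.64 CPM in FANKO, with a log2 fold change of -0.81 ± 0.35 that was not called (adjusted p = 0.0691). *Hspa1b* is nearly identical to its neighbour *Hspa1a*, so its count is uncertain. *Hsph1*, another exchange factor, had a log2 fold change of 0.65 ± 0.21 (adjusted p = 0.011). *Hsf1*, the master regulator of these genes, was at 14.6, 14.3, 12.9 and 12.4 CPM in WT and 12.6, 12.7, 12.96 and 13.04 CPM in FANKO and was not called (log2 fold change -0.08 ± 0.12, adjusted p = 0.639).

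At the other time points the counts of this list were 28 higher and 4 lower at ZT 6, where 16.9% and 10.1% of all genes were higher and lower. They were 6 higher and 2 lower at ZT 18 (all genes 8.54% and 5.1%) and 10 higher and 3 lower at ZT 22 (all genes 12.6% and 8.02%). Of the 27 members higher at ZT 10, 26 were also called higher at ZT 6, 6 at ZT 18 and 9 at ZT 22. From ZT 10 to the mean of ZT 18 and ZT 22 the mean log2 CPM of the members changed by a median of 0.28 in WT, upwards for 49 of 54, and by 0.10 in FANKO, upwards for 35. The same medians over all genes were 0.01 and -0.01. Such a split was not particular to this list. The medians in WT and FANKO were 0.18 and -0.02 for the NRF2 list and 0.25 and 0.00 for the mitochondrial chaperones. They were 0.19 and 0.04 for the ER list, and -0.08 and -0.07 for the immediate early genes. This difference between genotypes was not tested for the lists. *Hspa8* in WT went from 213 ± 21.9 CPM (SD, n = 4) at ZT 10 to 537 ± 89.5 CPM at ZT 18 and 700.3 ± 135 CPM at ZT 22, and in FANKO from 449.9 ± 76.7 to 612 ± 76.5 and 804 ± 85.3 CPM. The 2 genotypes were thus apart at ZT 10 and overlapped at ZT 18 and ZT 22. Scaled by library size alone, 7 of the 54 members were called higher at ZT 10, and relative to the median of all genes the list's median was then 0.42.

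**Figure D2:**
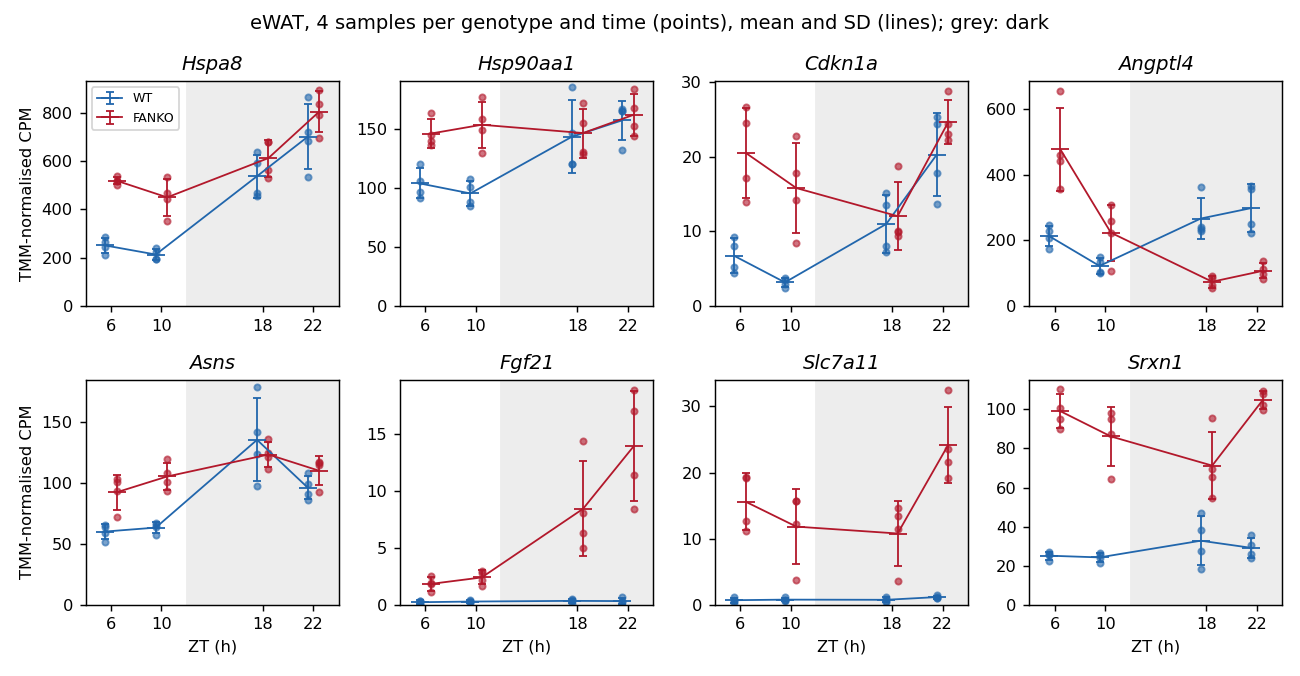
TMM-normalised CPM (vertical axis, from 0) of 8 stress genes in eWAT against time of day (ZT, h), with 4 samples per genotype and time as points, means as horizontal dashes joined by lines, SD as bars and the dark phase in grey. *Hspa8*, *Hsp90aa1*, *Cdkn1a* and *Asns* of WT are low at ZT 6 and ZT 10 and reach FANKO levels at ZT 18 and ZT 22, whereas *Slc7a11*, *Fgf21* and *Srxn1* of FANKO lie above WT at each time.

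Most members of the list of ER chaperones rose. Of 36 members of the ER list 23 rose (all genes 16%), 2 fell (8.46%) and 11 were not called at ZT 10. The median log2 fold change was 0.48. *Hspa5*, the main HSP70 of the ER (BiP), was at 264, 307, 279 and 265 CPM in WT and 429, 579.7, 799 and 723 CPM in FANKO, a log2 fold change of 1.18 ± 0.15 (adjusted p = 7.5e-09). *Derl1* and *Derl3*, which help to draw misfolded proteins out of the ER, rose by 1.30 ± 0.12 and 2.00 ± 0.31 on the log2 scale (adjusted p = 4.73e-13 and 7.49e-07). *Derl3* was scarce, at 0.931, 0.736, 1.23 and 0.732 CPM in WT and 3.68, 4.65, 3.27 and 2.48 CPM in FANKO. *Ero1l*, the oxidase that drives disulphide bonding in the ER, was at 23.1, 22.96, 22.1 and 24.5 CPM in WT and 34.9, 51.9, 52.5 and 49.3 CPM in FANKO (log2 fold change 1.02 ± 0.11, adjusted p = 6.52e-11). FANKO replicate 1 was the lowest FANKO library for *Hspa5*, *Derl1* and *Ero1l*, and it still lay above every WT library. Of the regulators, *Atf6*, an ER membrane factor freed by stress, rose by 0.60 ± 0.09 (adjusted p = 2.26e-07). *Xbp1*, whose messenger is spliced under ER stress, had 199.6, 177, 168 and 189 CPM in WT and 176, 173, 200.4 and 176 CPM in FANKO and was not called (log2 fold change -0.01 ± 0.12, adjusted p = 0.947). Counts per gene do not show its splicing. At the other times 21, 19 and 19 members were higher and 2, 0 and 0 lower at ZT 6, ZT 18 and ZT 22. Of all genes 16.9%, 8.54% and 12.6% were higher and 10.1%, 5.1% and 8.02% lower there. Scaled by library size alone, 9 members were called higher at ZT 10, with a median of 0.48 relative to all genes.

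The ATF4 list held the largest increases among the stress genes. Of its 47 members 30 rose (all genes 16%), 2 fell (8.46%) and 15 were not called at ZT 10. The median log2 fold change was 0.71. *Atf4* itself was at 49.7, 53.4, 46.2 and 44.5 CPM in WT and 105, 79.2, 118 and 92.9 CPM in FANKO, a log2 fold change of 1.03 ± 0.18 (adjusted p = 1.29e-05). Its partner *Ddit3* (CHOP) rose by 1.65 ± 0.22 (adjusted p = 2.72e-08), from 11.6, 11.2, 9.45 and 10.8 CPM to 27.8, 26.8, 44.4 and 36.97 CPM. Both were higher in every FANKO library than in any WT library. *Slc7a11*, the cystine importer that feeds glutathione synthesis, had 0.657, 0.54, 0.768 and 1.15 CPM in WT and 3.68, 15.7, 15.7 and 12.2 CPM in FANKO, a log2 fold change of 3.92 ± 0.47 (adjusted p = 2.79e-09). Its FANKO replicate 1 stood well below the other FANKO libraries. *Mthfd2*, an NAD-using enzyme of mitochondrial folate metabolism, was at 3.45, 4.61, 4.38 and 3.40 CPM in WT and 25.9, 38.6, 41.2 and 33.5 CPM in FANKO (log2 fold change 3.14 ± 0.22, adjusted p = 8.85e-17).

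The secreted hormones of this list were scarce. *Fgf21* was at 0.329, 0.442, 0.154 and 0.209 CPM in WT and 2.14, 1.67, 2.99 and 2.81 CPM in FANKO at ZT 10, a log2 fold change of 2.97 ± 0.54 (adjusted p = 1.61e-05). *Gdf15* was at 0.0548, 0.294, 0.154 and 0.0523 CPM in WT and 0.178, 1.01, 1.63 and 0.66 CPM in FANKO, and there the groups overlapped. Its log2 fold change of 2.63 ± 0.72 had an adjusted p of 0.00318, which was 0.107 by limma-voom and ranged from 0.000761 to 0.0399 when single libraries were left out. The effect on *Fgf21* was 3.17 at ZT 6, 4.65 at ZT 18 and 5.39 at ZT 22. The FANKO mean of *Fgf21* was 2.40 ± 0.613 CPM at ZT 10 and 13.9 ± 4.84 CPM at ZT 22, while the WT means were 0.283 ± 0.128 and 0.325 ± 0.296 CPM. The difference of its effect at ZT 10 from the mean of the other time points was -1.43 ± 0.69 on the log2 scale, with an adjusted p of 0.599.

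Further members of the ATF4 list were chosen after their values were seen. *Asns*, which makes asparagine, had 65.7, 66.8, 64.1 and 56.9 CPM in WT and 108, 119, 100.5 and 93.1 CPM in FANKO at ZT 10 (log2 fold change 0.74 ± 0.14, adjusted p = 2.8e-05). Its effect was 0.62 at ZT 6, -0.14 at ZT 18 and 0.19 at ZT 22. *Chac1*, which breaks down glutathione, had an effect of 0.92 ± 0.29 at ZT 10 (adjusted p = 0.011), 0.76 at ZT 6, 2.03 at ZT 18 and 2.22 at ZT 22. The call of *Chac1* at ZT 10 depended on the fit, passing by limma-voom (adjusted p = 0.0013) and by edgeR with ZT 10 samples only (0.00448), without WT replicate 1 (0.0044) or without FANKO replicate 2 (0.00923). *Trib3*, a pseudokinase that restrains ATF4, rose by 2.12 ± 0.26 (adjusted p = 3.12e-09), whereas *Sesn2*, a leucine sensor, fell by 0.87 on the log2 scale (adjusted p = 0.000184). At ZT 6, ZT 18 and ZT 22 the list had 34, 25 and 30 members higher and 3, 4 and 4 lower. Of all genes 16.9%, 8.54% and 12.6% were higher and 10.1%, 5.1% and 8.02% lower there. Scaled by library size alone, 17 members were called higher at ZT 10, with a median of 0.71 relative to all genes.

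Promoter sequence is shown for 4 of these genes because each holds the element that ATF4 is known to bind with C/EBP partners, TGATGNAA, read on both strands (capitals). For these 4 the difference of the effect at ZT 10 from the mean of the other time points did not pass the test (adjusted p = 0.95 for *Slc7a11*, 0.599 for *Fgf21*, 0.554 for *Chac1* and 0.247 for *Asns*). The windows are the 250 bases before the RefSeq start of each gene, 5′ to 3′ in the direction of the gene, on GRCm38.p6. They are chr3:50443614-50443863 on the minus strand for *Slc7a11*, chr7:45615491-45615740 on the minus strand for *Fgf21*, chr2:119350992-119351241 on the plus strand for *Chac1* and chr6:7693210-7693459 on the minus strand for *Asns*.
Slc7a11: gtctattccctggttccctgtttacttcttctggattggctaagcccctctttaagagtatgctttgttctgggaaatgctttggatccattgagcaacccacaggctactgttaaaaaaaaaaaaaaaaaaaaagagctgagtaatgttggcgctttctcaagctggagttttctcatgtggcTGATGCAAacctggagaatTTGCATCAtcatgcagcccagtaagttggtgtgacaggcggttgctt
Fgf21: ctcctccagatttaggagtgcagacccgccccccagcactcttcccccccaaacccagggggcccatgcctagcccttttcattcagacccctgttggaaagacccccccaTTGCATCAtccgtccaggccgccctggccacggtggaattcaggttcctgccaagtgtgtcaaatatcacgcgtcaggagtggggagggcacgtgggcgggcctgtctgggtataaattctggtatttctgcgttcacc
Chac1: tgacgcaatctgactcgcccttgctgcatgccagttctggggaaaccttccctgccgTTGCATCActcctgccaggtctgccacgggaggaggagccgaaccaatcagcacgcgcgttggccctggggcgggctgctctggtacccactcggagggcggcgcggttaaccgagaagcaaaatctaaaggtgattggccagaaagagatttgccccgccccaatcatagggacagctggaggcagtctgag
Asns: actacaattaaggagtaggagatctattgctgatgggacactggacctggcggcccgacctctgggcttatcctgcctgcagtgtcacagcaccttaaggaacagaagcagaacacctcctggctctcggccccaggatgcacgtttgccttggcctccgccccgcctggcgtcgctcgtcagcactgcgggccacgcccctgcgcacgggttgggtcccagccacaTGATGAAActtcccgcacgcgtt
*Slc7a11* held 2 matches, whose first bases lie 66 and 47 bases before the start, and the others 1 each, at 139 bases in *Fgf21*, 193 in *Chac1* and 23 in *Asns*. Of the 39 members of the list with a promoter in the table, 12 held the element (30.8%), beside 3.91% of the 27025 genes with a promoter there. A match is a description of letters and not a measured binding site. The effect at ZT 10 of these 4 genes ran from 0.74 for *Asns* to 3.92 for *Slc7a11*.

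Antioxidant genes under NRF2 came next by median. Of 45 members tested 28 rose (all genes 16%), 1 fell (8.46%) and 16 were not called at ZT 10. The median log2 fold change was 0.67. *Srxn1*, which repairs overoxidised peroxiredoxins, was at 23.7, 21.2, 26.7 and 25.3 CPM in WT and 64.3, 95.1, 98.1 and 87.1 CPM in FANKO, a log2 fold change of 1.83 ± 0.19 (adjusted p = 2.85e-11). *Cbr3*, a carbonyl reductase, had 3.45, 3.83, 3.84 and 4.70 CPM in WT and 12.1, 21.8, 17.6 and 19.8 CPM in FANKO (log2 fold change 2.17 ± 0.34, adjusted p = 1.2e-06), and the epoxide hydrolase *Ephx1* rose by 1.96 ± 0.22 (adjusted p = 6.87e-10). *Tkt*, an enzyme of the pentose phosphate pathway that also supports lipid synthesis, rose by 1.91 ± 0.33 (adjusted p = 6.82e-06), from 1318, 669, 1529.9 and 1359.9 CPM in WT to 5442, 4347, 3893 and 4589 CPM in FANKO. *Nfe2l2*, which encodes NRF2, was at 78.8, 83.2, 80.2 and 75.9 CPM in WT and 87.2, 74.05, 89.6 and 78.4 CPM in FANKO and was not called (log2 fold change 0.05 ± 0.10, adjusted p = 0.722). NRF2 is known to be set mainly by the stability of its protein, which counts of RNA do not measure.

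Further textbook targets of NRF2 were added after their values were seen. *Gclm*, a subunit of the enzyme that begins glutathione synthesis, was at 35.8, 29.7, 40.02 and 33.03 CPM in WT and 80.3, 136, 112 and 120.3 CPM in FANKO (log2 fold change 1.70 ± 0.18, adjusted p = 9.2e-11). *Hmox1*, haem oxygenase, rose by 1.28 ± 0.28 (adjusted p = 0.000278). *Nqo1* had a log2 fold change of 0.69 ± 0.23 and was not called (adjusted p = 0.0145). The promoter of *Gclm*, chr3:122245307-122245556 on the plus strand of GRCm38.p6, is printed with the core of the antioxidant response element, TGACNNNGC on either strand, in capitals.
Gclm: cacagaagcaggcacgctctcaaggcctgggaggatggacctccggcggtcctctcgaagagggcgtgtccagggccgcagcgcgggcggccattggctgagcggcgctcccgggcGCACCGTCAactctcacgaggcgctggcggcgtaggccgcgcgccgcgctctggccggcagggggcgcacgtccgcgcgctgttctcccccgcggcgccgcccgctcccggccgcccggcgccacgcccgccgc
This core was found in 11 of the 40 list members with a promoter in the table (27.5%) and in 11.5% of all genes there, and in *Gclm* its first base lies 134 bases before the start. At ZT 6, ZT 18 and ZT 22 the list had 28, 18 and 24 members higher and 1 lower at each. Of all genes 16.9%, 8.54% and 12.6% were higher and 10.1%, 5.1% and 8.02% lower there. Scaled by library size alone, 20 members were called higher at ZT 10, with a median of 0.67 relative to all genes.

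Chaperones and proteases of mitochondria were higher too, with 13 of 18 members called higher (all genes 16%) and none lower (8.46%). Their median log2 fold change was 0.66. *Hspa9*, the mitochondrial HSP70 that pulls proteins through the inner membrane, had 346, 309, 399 and 384 CPM in WT and 836, 900.3, 855 and 804 CPM in FANKO (log2 fold change 1.24 ± 0.13, adjusted p = 3.75e-11). Its exchange factor *Grpel1* rose by 1.02 ± 0.12 and its J-domain partner *Dnaja3* by 0.89 ± 0.11 (adjusted p = 2.37e-09 and 1.39e-08). The matrix protease *Lonp1* was at 76.3, 78.1, 84.4 and 84.4 CPM in WT and 155, 176, 153 and 142 CPM in FANKO (log2 fold change 0.95 ± 0.13, adjusted p = 2.76e-08). The genes of the chaperonin pair, *Hspd1* and *Hspe1*, were added after their values were seen and rose by 0.52 ± 0.12 and 0.84 ± 0.14 (adjusted p = 0.000534 and 2.02e-06). They lie head to head and share the stretch before *Hspe1*, chr1:55087898-55088147 on the plus strand of GRCm38.p6, printed here with matches to the heat shock element (GAANNTTCNNGAA or TTCNNGAANNTTC) in capitals, since both genes answer to heat shock factor.
Hspe1: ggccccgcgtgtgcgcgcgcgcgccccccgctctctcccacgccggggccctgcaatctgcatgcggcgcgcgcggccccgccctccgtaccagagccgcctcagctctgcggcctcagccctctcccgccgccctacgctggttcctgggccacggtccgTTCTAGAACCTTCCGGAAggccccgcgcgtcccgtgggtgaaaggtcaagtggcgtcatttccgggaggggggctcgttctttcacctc
The overlapping matches form 1 run of inverted repeats. Such a match of 3 units was found in 0.514% of all genes with a promoter in the table and, apart from *Hspd1* and *Hspe1*, in Dnajb6 alone of the heat shock list. Pairs of units (GAANNTTC or TTCNNGAA) were found in 14 of 45 members of the heat shock list (31.1%), beside 14.5% of all genes. At ZT 6, ZT 18 and ZT 22 the mitochondrial list had 16, 6 and 8 members higher and 0 lower at each. Of all genes 16.9%, 8.54% and 12.6% were higher and 10.1%, 5.1% and 8.02% lower there. Under scaling by library size 8 were called higher at ZT 10, with a median of 0.65 relative to all genes. The 8 tested protein-coding genes of mitochondrial DNA had a median log2 fold change of 0.87, with 4 called higher, among them *mt-Co1* (0.94 ± 0.17, adjusted p = 1.91e-05).

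Of 21 genes of the hypoxia list 9 were higher (42.9%) and 2 lower, beside 16% and 8.46% of all genes. The median log2 fold change was 0.41, and that of 15 members was positive. *Egln3*, the oxygen-sensing hydroxylase that marks HIF for destruction, was at 2.25, 2.55, 2.77 and 3.24 CPM in WT and 9.08, 13.1, 7.79 and 11.6 CPM in FANKO (log2 fold change 1.93 ± 0.23, adjusted p = 2.69e-09). The other 3 named members serve glucose use: the glycolytic genes *Aldoa* and *Pgk1* rose by 1.84 ± 0.20 and 1.25 ± 0.16 (adjusted p = 3.87e-10 and 8.38e-09), and *Pdk1*, which holds pyruvate back from the mitochondria, by 1.33 ± 0.21 (adjusted p = 1.85e-06). Another gene model in the table also carries the symbol *Aldoa*, so reads may be split between them and its count is uncertain. *Hif1a* was not called (log2 fold change 0.28 ± 0.12, adjusted p = 0.0736). Under scaling by library size 4 members were called higher, with a median of 0.41 relative to all genes.

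Of 29 tested members of the p53 list 8 rose (27.6%) and 2 fell, beside 16% and 8.46% of all genes. The median log2 fold change was 0.26. *Cdkn1a*, the cell cycle inhibitor p21, was at 2.46, 2.99, 3.76 and 3.50 CPM in WT and 8.42, 14.2, 17.9 and 22.8 CPM in FANKO, a log2 fold change of 2.28 ± 0.38 (adjusted p = 2.73e-06). All FANKO libraries lay above all WT libraries. The death receptor *Tnfrsf10b* and the growth arrest gene *Gadd45a* rose by 1.33 ± 0.17 and 1.30 ± 0.30 (adjusted p = 9.97e-09 and 0.00056). *Trp53* was not called (log2 fold change 0.26 ± 0.15, adjusted p = 0.163). Scaled by library size alone, 2 members were called higher. There were 5 with DESeq2's size factors, with eWAT samples only or without WT replicate 3.

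Immediate early genes, which mark recent stimulation and can also rise during dissection, showed few calls. Of 41 members 3 rose (7.32%), 0 fell and 38 were not called by edgeR, with a median log2 fold change of -0.09. Over all genes 16% rose and 8.46% fell. *Maff*, a small MAF factor that pairs with NRF2, was at 4.98, 4.81, 4.30 and 3.76 CPM in WT and 17.8, 14.5, 27.4 and 19.6 CPM in FANKO (log2 fold change 2.15 ± 0.29, adjusted p = 4.8e-08). Its effect was larger at ZT 6 (3.09) and ZT 22 (3.70), with an unadjusted p of 0.00963 and an adjusted p of 0.417 for the difference from the mean of the other time points. *Gadd45b* and *Csrnp1* rose by 0.86 ± 0.27 and 0.73 ± 0.21 (adjusted p = 0.00959 and 0.00537), and both calls were fragile. With library size as the only scaling 1 member of the list was called higher, *Maff*. *Gadd45b* lost its call in 5 of the 8 fits without 1 library (without WT replicate 1, 3 or 4 or FANKO replicate 1 or 3), by DESeq2 (adjusted p = 0.0141) and by limma-voom (0.0296). *Csrnp1* lost it in 6 of the 8 (without WT replicate 1, 3 or 4 or FANKO replicate 1, 3 or 4), and not by DESeq2 (adjusted p = 0.00692) or limma-voom (0.00315). *Fos*, picked after its values were seen, had 1.97, 7.16, 3.00 and 4.86 CPM in WT and 5.52, 5.31, 4.96 and 9.08 CPM in FANKO and was not called (adjusted p = 0.315).

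Glucocorticoid-responsive genes and metallothioneins were called in both directions. Of 23 members 3 rose and 4 fell, beside 16% and 8.46% of all genes, and the median log2 fold change was -0.32. *Tsc22d3* (GILZ), a textbook target of the glucocorticoid receptor, was at 185, 222, 161 and 125 CPM in WT and 122, 88.6, 69.5 and 79.9 CPM in FANKO (log2 fold change -0.94 ± 0.26, adjusted p = 0.00287). The receptor *Nr3c1* fell by 0.32 on the log2 scale (adjusted p = 0.00141), from 332, 326, 363 and 375 CPM to 308, 261, 275 and 272 CPM, with no overlap. *Tsc22d3* lost its call without WT replicate 2 (adjusted p = 0.0209), without FANKO replicate 3 (0.0193) or without FANKO replicate 4 (0.0123). *Fkbp5*, a cochaperone of the receptor added after its values were seen, had 92.2, 111, 62.4 and 63.8 CPM in WT and 54.5, 33.3, 32.8 and 30.04 CPM in FANKO (log2 fold change -1.12 ± 0.36, adjusted p = 0.0107). Members that rose were *Cdkn1a*, also on the p53 list, *Pdk4* (1.72 ± 0.37, adjusted p = 0.000218) and *Hsd11b1* (1.34 ± 0.18, adjusted p = 3.27e-08), whose enzyme regenerates active corticosterone within cells. At ZT 6, ZT 18 and ZT 22 the list had 4, 1 and 2 members higher and 8 lower at each. Of all genes 16.9%, 8.54% and 12.6% were higher and 10.1%, 5.1% and 8.02% lower at these times, so more members were lower than these shares.

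Other gene groups moved in the same samples, where 16% of all genes were called higher and 8.46% lower. Of 34 proteasome subunits 30 rose and 0 fell (median log2 fold change 0.58), among them *Psmd8* (1.33 ± 0.14, adjusted p = 1.28e-10) and the catalytic *Psmb5* (1.35 ± 0.15, adjusted p = 7.73e-10). From ZT 10 to the mean of the dark time points their mean log2 CPM changed by a median of 0.11 in WT, upwards for 32 of the 34, and by -0.13 in FANKO, upwards for 0, and this difference between genotypes was not tested for the list. Over all 20249 genes the change was upwards for 10624 in WT and 9933 in FANKO. Of 21 genes of lipid synthesis 15 rose and 0 fell (median 1.14), with *Thrsp* at 459, 454, 682 and 639 CPM in WT and 2550.2, 2392, 2110.1 and 2389 CPM in FANKO. Genes of fatty acid oxidation had 9 of 20 higher and 1 lower, led by both subunits of the trifunctional protein, *Hadha* (1.48 ± 0.15) and *Hadhb* (1.45 ± 0.16). Of the genes of adipocyte identity 6 of 22 rose and 5 fell, with *Cidea*, a lipid droplet gene of brown fat, at 3.89, 2.31, 6.15 and 2.93 CPM in WT and 43.4, 43.2, 36.4 and 34.2 CPM in FANKO and *Rbp4*, the retinol carrier, at a log2 fold change of -2.12 ± 0.31 (adjusted p = 3.23e-07). Collagens and matrix genes were mostly lower, 19 of 24, with 2 higher (median -0.94), and *Lox*, the enzyme that cross-links collagen, was at 58.3, 64.5, 53.9 and 47.4 CPM in WT and 21.5, 20.8, 29.1 and 27.6 CPM in FANKO.

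Genes of NAD metabolism and the clock were called at shares near those of all genes (16% higher, 8.46% lower). Of 23 genes of NAD metabolism 5 rose and 2 fell. *Parp1*, which consumes NAD, rose by 0.62 ± 0.08 (adjusted p = 1.49e-08), and *Nnmt*, which methylates nicotinamide, was at 107, 117, 104 and 116 CPM in WT and 44.6, 26.8, 27.1 and 27.2 CPM in FANKO (log2 fold change -1.81 ± 0.27, adjusted p = 2.4e-07). Of 17 clock genes 3 rose and 2 fell. *Per3* had 231, 253, 225 and 211 CPM in WT and 138, 127, 101 and 109.8 CPM in FANKO (log2 fold change -0.95 ± 0.18, adjusted p = 2.16e-05), and *Clock* rose by 0.49 ± 0.10 (adjusted p = 4.17e-05). *Npas2*, a paralog of *Clock*, was scarce, at 0.383, 0.343, 0.384 and 0.261 CPM in WT and 0.593, 1.80, 1.20 and 1.82 CPM in FANKO. The effect of *Clock* was 0.16, -0.11 and -0.21 at ZT 6, ZT 18 and ZT 22, and that of *Npas2* 0.38, -0.07 and -0.22. In edgeR's test against the mean of the other times, 3 clock differences were positive and 4 negative at an unadjusted p below 0.05. Over all genes the shares were 4.93% and 3.18%. At an FDR below 0.01 edgeR called 0 of the 17 there, and 2 against the mean of ZT 18 and ZT 22 (all genes 0.454%).

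Markers of some other cells moved with the genotype. Over all genes 16% were called higher and 8.46% lower. Of 8 T cell markers 5 were higher in FANKO, with a summed level of 5.22 to 10.3 CPM in WT and 11.9 to 23.4 CPM in FANKO. Of 10 macrophage markers 2 were higher (20%, near the 16% of all genes), *Gpnmb* and *Itgax*. The summed level overlapped (6565 to 8593 CPM in WT, 6429.5 to 7773 in FANKO). This sum includes *Lpl*, also on the adipocyte identity list, which took a mean of 0.85% of all counts in WT and 0.644% in FANKO. It is therefore mostly *Lpl* and does not measure macrophages apart from adipocytes. Progenitor and fibroblast markers were lower for 4 of 6 (summed 1215 to 1351 CPM in WT, 727 to 834 in FANKO) and mesothelial markers for 5 of 6 (292 to 387 CPM in WT, 167 to 221 in FANKO). In whole tissue, fewer cells of a type and less RNA per cell cannot be told apart. Of 6 brown adipocyte markers 2 were higher and 4 not called (summed 10.7 to 15.7 CPM in WT, 48.1 to 57.2 in FANKO). Most of the rise of this sum was that of *Cidea* (log2 fold change 3.40 ± 0.32, adjusted p = 3.87e-12). Mast cell markers were higher for 1 of 5 and lower for 3 (summed 21.01 to 24.2 CPM in WT, 25.5 to 29.4 in FANKO), and smooth muscle and pericyte markers were lower for 3 of 6 (559.6 to 695 CPM in WT, 469 to 599 in FANKO). No skeletal muscle marker passed the test, and 2 of 8 had a positive and the others a negative log2 fold change, with a median of -0.49. Their summed level was 12.3 to 19.4 CPM in WT and 49.8 to 97.4 in FANKO, and *Acta1*, the skeletal actin, had a log2 fold change of 2.87 (adjusted p = 0.0159). B and plasma cells, neutrophils, red blood cells and epididymis had 0 called markers (of 6, 3, 5 and 7 tested). Endothelial markers were lower for 1 of 6 and higher for 0. For each of these cell types the summed level overlapped between the genotypes. What part the cell types of this paragraph had in the changes of the stress lists was not tested.

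Whether the genotype effect at ZT 10 differed from that at the other time points was tested gene by gene in the same fit. Against the mean of ZT 6, ZT 18 and ZT 22, edgeR called 0 of 20249 genes at an FDR below 0.01 (0%). At an unadjusted p below 0.05 there were 1641 genes, of which 998 had a more positive effect at ZT 10 and 643 a more negative one. DESeq2 called 36 genes and limma-voom 4. Without FANKO replicate 1 edgeR called 23 genes, and without each other ZT 10 library in turn it called 0 (1327 to 1638 at an unadjusted p below 0.05). Among the 313 stress genes 38 (12.1%) had an unadjusted p below 0.05 with a positive difference and 12 (3.83%) with a negative one, beside 4.93% and 3.18% of all genes. Of the 38, 16 were heat shock proteins and cochaperones, a list with 1 negative difference at that level. DESeq2 called 2 stress genes, *Angptl4* and *Cdkn1a*.

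The number of calls depended on the time point compared. Against ZT 6 alone 0 genes were called by edgeR (0%, with 756 at an unadjusted p below 0.05), against ZT 18 alone 30 (0.148%) and against ZT 22 alone 64 (0.316%). A contrast of ZT 10 with the mean of ZT 18 and ZT 22, added after these results were seen, called 92 genes (0.454%), 64 with a more positive effect at ZT 10. Of these 5 were stress genes, 1.6% of the 313. They were *Angptl4*, *Cdkn2b*, *Cdkn1a*, *Hspa8* and *Cct6a*, and all 5 had the more positive effect at ZT 10. These calls depend on single libraries. Leaving out 1 ZT 10 library at a time gave 36 to 139 called genes, the most without FANKO replicate 1. *Angptl4* was called in all 8 of these fits, *Cdkn2b* in 6, *Cdkn1a* in 2, and *Hspa8* and *Cct6a* in 1, the fit without FANKO replicate 1.

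*Angptl4*, an inhibitor of lipoprotein lipase that is raised by fasting, stands on the glucocorticoid list and was picked after its values were seen. It was higher in FANKO at ZT 6 (1.16, adjusted p = 0.00149) and lower in the dark phase. At ZT 10 it was at 105, 100.4, 149 and 135 CPM in WT and 106, 259, 222 and 308 CPM in FANKO, with FANKO replicate 1 inside the WT range (log2 fold change 0.87 ± 0.30, adjusted p = 0.0185). At ZT 18 the effect was -1.84 (adjusted p = 6.4e-06) and at ZT 22 -1.47 (adjusted p = 0.000116). The difference of the effect at ZT 10 from the mean of the other time points was 1.59 ± 0.34 (adjusted p = 0.0239), and from the dark mean 2.53 ± 0.37 (adjusted p = 2.58e-05). Without FANKO replicate 1 the first of these had an adjusted p of 0.00483. *Cdkn1a* in WT went from 3.18 ± 0.575 CPM at ZT 10 to 20.3 ± 5.56 CPM at ZT 22, and in FANKO from 15.8 ± 6.05 to 24.6 ± 2.92 CPM. Its effect was 1.65 at ZT 6, 0.13 at ZT 18 and 0.27 at ZT 22, and the difference from the dark mean was 2.08 ± 0.44 (adjusted p = 0.00533).

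*Cdkn2b*, a p53 list member that encodes another cell cycle inhibitor, was picked after its values were seen. Its effect was 0.43 at ZT 10, 0.35 at ZT 6 and -0.85 and -0.81 at ZT 18 and ZT 22 (difference from the dark mean 1.26 ± 0.25, adjusted p = 0.00306). The differences from the dark mean were 0.88 ± 0.19 for *Hspa8* (adjusted p = 0.00689) and 0.51 ± 0.11 for *Cct6a* (adjusted p = 0.00961). At ZT 6 the effects of *Hspa8* and *Cct6a* were 1.05 and 0.35. Just outside the threshold stood further chaperone genes, *Ahsa1* (adjusted p = 0.0109) and *Hspa4* (adjusted p = 0.013), and from the ATF4 list *Asns* (adjusted p = 0.0162). The plot of ZT 10 against the dark phase shows these genes above the line of equal effects.

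**Figure D3:**
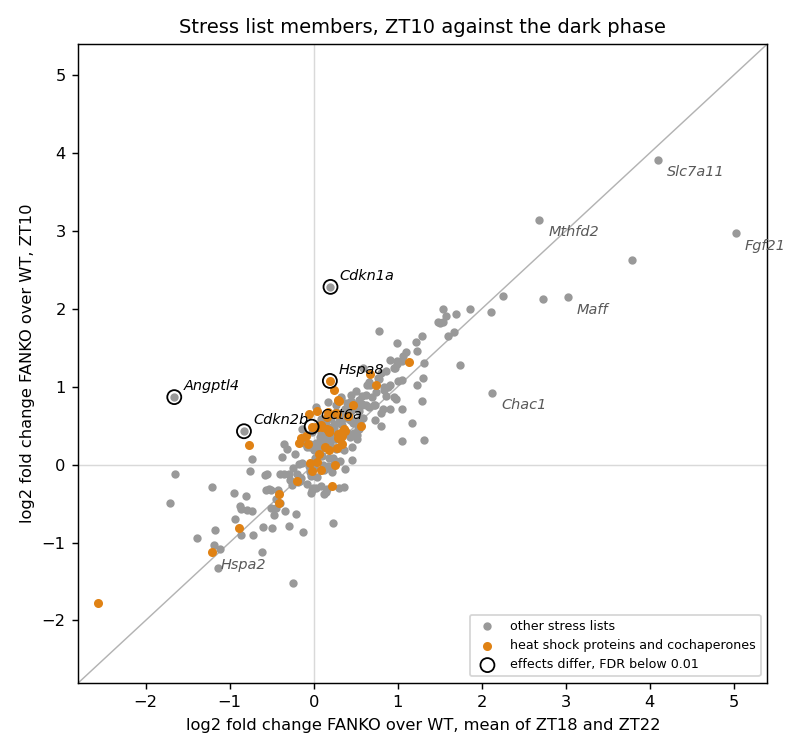
Log2 fold change of FANKO over WT at ZT 10 (vertical axis) against the mean log2 fold change at ZT 18 and ZT 22 (horizontal axis) for the 313 tested stress genes, with heat shock proteins and cochaperones in orange, the 5 genes whose effects differ ringed and the line of equal effects in grey. The ringed genes lie above the line, *Angptl4* farthest with a difference of 2.53, while *Fgf21* and *Chac1* lie below it without passing the test.

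The 10 protein-coding genes with the smallest p of the difference from the mean of the other time points, all with an adjusted p of 0.0127, were *Acvr1c*, *Plau*, *Dram1*, *Cavin2*, *Fastkd2*, *Hdgfl2*, *Cdr2*, *Klb*, *Dtx4* and *Klhl26*. None was on a stress list, though *Dram1* is known as a p53 target that promotes autophagy. *Acvr1c* (ALK7), a receptor of activin-like ligands in fat, was at 300.0, 289, 343 and 339 CPM in WT and 267, 348, 296 and 288 CPM in FANKO at ZT 10, where the groups overlapped (log2 fold change -0.08 ± 0.18). Its effect was -0.90, -1.27 and -1.55 at ZT 6, ZT 18 and ZT 22. *Klb*, the coreceptor through which FGF21 acts, was at 35.2, 29.9, 38.5 and 41.3 CPM in WT and 98.3, 99.8, 96.3 and 103 CPM in FANKO at ZT 10 (log2 fold change 1.46 ± 0.17, adjusted p = 1.94e-09). Its effect was 0.85 at ZT 6, 0.16 at ZT 18 and 0.41 at ZT 22, the difference being 0.98 ± 0.20. *Plau*, the plasminogen activator urokinase, was lower at ZT 10 (-0.65 ± 0.16, adjusted p = 0.00117) and higher at ZT 22 (1.01, adjusted p = 1.48e-06).

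*Dram1* and *Cavin2*, a coat protein of caveolae, had positive effects by day and negative ones by night, with *Dram1* at 0.38 at ZT 10 and -0.60 at ZT 22. The effect of *Cavin2* at ZT 10 was small and not called (0.23, adjusted p = 0.0845). *Hdgfl2* fell by 1.03 on the log2 scale at ZT 10, and its gene overlaps Plin4 on the other strand. For *Dtx4*, a ubiquitin ligase of the Notch pathway, FANKO replicate 1 was at 14.4 CPM and the other FANKO libraries at 31.5 CPM or more.

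**Figure D4:**
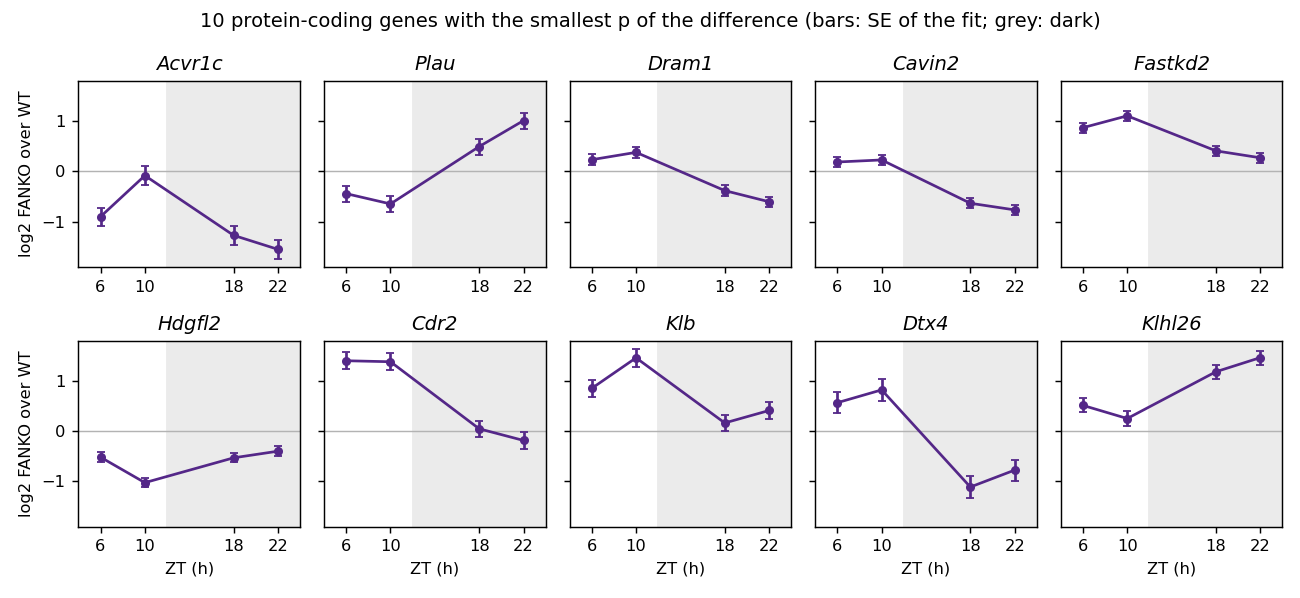
Log2 fold change of FANKO over WT (vertical axis, points with the SE of the fit as bars) against time of day (ZT, h) for the 10 protein-coding genes with the smallest p of the difference between ZT 10 and the other time points, with the dark phase in grey. In most panels ZT 6 and ZT 10 lie together and apart from ZT 18 and ZT 22, as for *Cdr2* at 1.40 and 1.38 against 0.04 and -0.19.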

How the data were processed

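Total RNA of eWAT, depleted of ribosomal RNA, was sequenced as stranded libraries with 38-bp paired-end reads. The authors aligned the reads with STAR 2.5.3a to GRCm38.p5 and deposited raw counts per gene, made with featureCounts 1.5.3 and GENCODE M15. Whether counting used strand, and how multi-mapping reads were treated, is not given in the sources used here, so overlapping genes and near-identical copies are uncertain. Groups came from the labels, and 0 columns were left unmapped. The deposited counts of all 64 samples (16 groups of 4) were fitted together with edgeR 4.0.16 in R 4.3.3 (TMM scaling, filterByExpr, quasi-likelihood test, 1 coefficient per group). Of 52636 genes, 20249 were tested and 32387 were removed for low counts. An FDR below 0.01 (Benjamini-Hochberg over all tested genes) was called. The genotype effect at ZT 10 was also tested against the mean effect at ZT 6, ZT 18 and ZT 22. All errors of fold changes are SE from this fit.

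The members and gene lists were chosen with earlier results of these data known. Named genes were *Nampt*, up to 8 members per stress list whose effect at ZT 10 differed (0 did) and up to 4 by fold among those called, 9 regulators, the 10 largest increases and decreases of protein-coding genes whose mean log2 CPM reached 1 and whose groups did not overlap, the 10 smallest p of the difference, and up to 3 members of each other list by p. Genes outside this rule are marked as chosen after their values were seen. A gene that the rule names is not reported here. Alternatives were other scalings (DESeq2's size factors, library size alone), low-count filters, eWAT or ZT 10 samples only, a replicate block, DESeq2 1.42.0, limma-voom (limma 3.58.1), another FDR and leaving out each ZT 10 library. Promoters came from a RefSeq table of GRCm38.p6 and gene overlaps from GENCODE M21, which matched 52489 of the gene identifiers. The effects rest on 4 samples per group and on the counts assigned to genes given in the text. The SE and p values of the main fit take the spread within groups from all 64 samples.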

Additional observations from a re-analysis of the deposited data

Results flagged for a closer look

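In 240 groups of 4 libraries at ZT 10, formed by the named genes and genotypes, 17 (7.08%) held a library whose gap to its nearest neighbour exceeded Dixon's 95% critical value. Chance flags about 1 in 20 groups. In FANKO the low library stood at 151.6 CPM for *Ephx1*, 47.7 CPM for *Pgk1*, 101.9 CPM for *Grpel1*, 14.4 CPM for *Dtx4* and 44.6 CPM for *Hspe1*. The high FANKO library stood at 200.4 CPM for *Xbp1*, 1.54 CPM for *D430019H16Rik*, 3.20 CPM for *Adamtsl2*, 44.6 CPM for *Nnmt*, 54.5 CPM for *Fkbp5* and 9.08 CPM for *Fos*. In WT the high library stood at 25.5 CPM for *Celsr2*, 15.7 CPM for *2810459M11Rik*, 0.768 CPM for *Phospho1* and 139.9 CPM for *Hspa4*, and the low library at 4.00 CPM for *Cdkn2b* and 23.3 CPM for *Hspe1*.

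The genotype effect at ZT 10 differed from that at another time point for several named genes, by edgeR's quasi-likelihood test of the difference (FDR below 0.01 over all genes). More positive effects at ZT 10 than at ZT 18 and at ZT 22, in that order, were found for *Dram1* (0.76 and 0.98 on the log2 scale), *Cavin2* (0.86 and 0.99), *Fastkd2* (0.70 and 0.83), *Cdr2* (1.33 and 1.57), *Dtx4* (1.93 and 1.60) and the stress gene *Angptl4* (2.71 and 2.34). *Plau* (-1.14 and -1.66) and *Klhl26* (-0.93 and -1.21) had more negative effects at ZT 10. Against ZT 18 alone the difference passed for *Klb* (1.30) and *Celsr2* (-2.07). Against ZT 22 alone it passed for *Acvr1c* (1.47), *Clock* (0.70) and *Hdgfl2* (-0.63). Among genes chosen after their values were seen, the stress gene *Angptl4* (2.71 and 2.34) had more positive effects at ZT 10. Others so chosen were *Plin2*, a lipid droplet coat protein (1.62 against ZT 18), *Glrx*, a glutaredoxin (1.53 against ZT 18), and the clock output gene *Dbp* (-1.78 and -1.81). The causes were not tested.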

How the results depend on the processing

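The count of genes called at ZT 10 stayed within 1.5 times of 4953 under each alternative run, and was 4001 to 4660 when single libraries were left out. The count of genes whose effect at ZT 10 differed from the mean of the other time points, 0 with edgeR, was 1 with no filter on low counts, 6 with eWAT samples only, 4 with limma-voom, 36 with DESeq2, 37 at an FDR of 0.05, and 0 to 23 when single libraries were left out, the 23 without FANKO replicate 1. Against ZT 18 alone it was 30, against ZT 22 alone 64 and against their mean 92. With 4 libraries per group the depth limits scarce genes such as *Gdf15* and *Fgf21*.

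Scaling by library size alone lowered the members called higher to 7 in the heat shock, 9 in the ER, 17 in the ATF4, 1 in the immediate early, 2 in the p53, 4 in the hypoxia and 8 in the mitochondrial list, and moved the log2 fold change of *Nampt* to -0.56, which passed the threshold. By the alternative's construction this scaling shifts all genes, with a median of -0.31, so the lists' medians relative to all genes could hardly move. With DESeq2's size factors the immediate early list had 1 and the p53 list 5, with no filter 1 and 5, and with eWAT samples only the p53 list had 5. The cause was not tested. When single libraries were left out the ranges were 24 to 27 for heat shock, 21 to 23 for ER, 27 to 29 for ATF4, 26 to 28 for NRF2, 1 to 4 for immediate early, 3 to 4 for glucocorticoid, 5 to 9 for p53, 8 to 9 for hypoxia and 13 for mitochondrial members, and -0.30 to -0.19 for *Nampt*. No called value changed sign.

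The labels give both genotypes replicate numbers 1 to 4. Deviations of same-numbered libraries correlated at -0.03, -0.01, 0.05 and 0.09 over genes, so the numbers were not taken to pair the samples. A replicate block gave 5147 called genes at ZT 10 (4887 with ZT 10 samples only) and 2 for the difference, and did not move a list's count by over 1.5 times.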
